A study of Mus musculus with 16 samples.

Results

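Of the 16 hypothalamic libraries of diet-induced obese mice, 5 formed a set low in genes of meningeal fibroblasts and the other 11 a high set. The sets were chosen on the measured levels of Dcn, Lum, Col1a1 and Col1a2 in these same libraries, so every difference between the sets given below is a description and carries no test. The low set held PF 1, PF 2, CS 2, PF+CS 4 and Veh 3, which is 2 of 4 PF libraries and 1 of 4 in each of the CS, PF+CS and Veh groups. The names are the group and the replicate number of the labels.

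All mice were C57BL/6J fed a high-fat diet until obese, and all had received daily intraperitoneal DMSO for 1 week before 4 days of treatment. PF mice were pair-fed, with a ration of 0.5 g of the diet per day. CS mice ate freely and received a daily celastrol dose of 100 µg per kg, celastrol being a plant triterpenoid. PF+CS mice received celastrol at that dose together with the ration of the PF group. Veh mice received DMSO with free food. The ration was less than the 0.8 g per day that celastrol-treated mice ate, per the labels' protocols. Tissue was collected 6 h after the last injection. The labels give neither age, cages nor how the tissue was dissected. They do not say that replicates came from separate litters or days, so p-values measure the spread between these samples.

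The meninges are the connective tissue sheets that wrap the brain, with the pia lying on its surface and the arachnoid and dura outside it. Their fibroblasts make fibrillar collagens and the small proteoglycans that bind them, and those of the arachnoid form a barrier of joined cells with transporters for organic ions, betaine, amino acids and sulfate. In the embryo they are a source of retinoic acid, BMPs and insulin-like growth factor 2, and they depend on the forkhead factor Foxc1.

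Because meningeal transporters differed most between the sets, the promoters of 3 of them are printed first, with those of Kcnj13, a potassium channel gene that was also far lower in the low set, and of Col1a2, the collagen gene that separated the sets most widely among the 4 that chose them. Each runs from 250 bases before to 50 bases after the start that RefSeq's promoter table gives for the gene, 5′ to 3′ on the strand of the gene, on GRCm38.p6. For Slc22a8 that start lies inside the annotated span of the gene, whose longest transcripts begin further upstream. Capitals mark matches to 3 motifs on either strand. One is TATANA, with N for any base, the box that sits near the start of many genes. Another is CCAAT, which the factor NF-Y binds in many promoters. The last is TAAACA, the core that forkhead factors bind.
Slc22a6 promoter, chr19:8617746-8618045, plus strand: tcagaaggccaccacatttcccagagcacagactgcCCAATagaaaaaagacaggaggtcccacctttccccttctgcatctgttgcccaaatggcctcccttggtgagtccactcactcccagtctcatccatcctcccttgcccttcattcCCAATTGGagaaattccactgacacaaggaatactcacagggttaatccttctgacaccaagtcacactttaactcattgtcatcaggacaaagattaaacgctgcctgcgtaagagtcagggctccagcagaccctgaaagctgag
Slc22a8 promoter, chr19:8592932-8593231, plus strand: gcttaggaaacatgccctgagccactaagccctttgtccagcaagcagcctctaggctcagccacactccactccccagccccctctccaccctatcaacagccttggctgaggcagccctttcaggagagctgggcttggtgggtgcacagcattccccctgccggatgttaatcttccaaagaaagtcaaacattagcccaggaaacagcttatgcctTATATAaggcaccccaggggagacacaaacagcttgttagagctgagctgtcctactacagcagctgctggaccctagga
Slc13a4 promoter, chr6:35308077-35308376, minus strand: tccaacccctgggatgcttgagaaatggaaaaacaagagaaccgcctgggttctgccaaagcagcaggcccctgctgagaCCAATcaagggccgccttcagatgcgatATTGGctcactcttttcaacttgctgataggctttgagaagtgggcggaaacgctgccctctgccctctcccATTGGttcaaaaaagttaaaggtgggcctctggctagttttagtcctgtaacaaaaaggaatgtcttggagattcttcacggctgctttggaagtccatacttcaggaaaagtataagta
Kcnj13 promoter, chr1:87394680-87394979, minus strand: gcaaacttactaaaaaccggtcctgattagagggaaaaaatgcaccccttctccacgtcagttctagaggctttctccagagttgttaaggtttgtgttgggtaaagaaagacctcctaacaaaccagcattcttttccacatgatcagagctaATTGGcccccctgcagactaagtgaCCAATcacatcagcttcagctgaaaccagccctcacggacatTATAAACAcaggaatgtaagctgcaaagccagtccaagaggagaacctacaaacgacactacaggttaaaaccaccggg
Col1a2 promoter, chr6:4505368-4505667, plus strand: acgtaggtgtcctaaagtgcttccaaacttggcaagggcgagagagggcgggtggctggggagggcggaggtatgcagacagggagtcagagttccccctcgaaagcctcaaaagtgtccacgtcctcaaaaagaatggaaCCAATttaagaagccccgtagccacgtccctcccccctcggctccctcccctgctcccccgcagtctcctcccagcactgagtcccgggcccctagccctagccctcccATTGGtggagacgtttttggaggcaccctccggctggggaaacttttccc

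Slc22a8 held TATATA 30 bases before its start. Kcnj13 held TATAAA 29 bases before its start, and its TAAACA match overlapped that box. Slc22a6 and Slc13a4 held 3 CCAAT matches each, and those of Slc22a6 at 97 and 94 bases before the start overlapped on opposite strands. Of the genes at least 2-fold lower in the low set without overlap, 73 had a promoter in the RefSeq table. TATANA was in 21.9% of them against 25.4% of the promoters of all 27025 genes in the table, CCAAT in 27.4% against 37.9%, and TAAACA in 11% against 13.4%. None of the 3 motifs was more frequent in the promoters of these genes than in all promoters.

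The 4 genes that chose the sets were as follows, in CPM, counts scaled to library size by TMM. Col1a2, a chain of type I collagen (chr6:4505618-4541543, GRCm38), had 16.4 in PF 1, 11.8 in PF 2, 15.3 in CS 2, 12.6 in PF+CS 4 and 12.4 in Veh 3. In the high set its lowest, median and highest values were 29.3, 34.0 and 39.6 CPM. No low library came near a high one for Col1a2.

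Col1a1, the other chain of type I collagen (chr11:94936224-94953042), had 4.22, 4.07, 5.15, 5.14 and 4.16 CPM in the same order of low libraries, against 7.65, 9.12 and 12.5 CPM as the lowest, median and highest of the high set. Dcn, encoding the proteoglycan decorin (chr10:97479500-97518163), had 14.4, 12.2, 16.8, 16.2 and 15.5 CPM in the low libraries, against 17.1, 24.7 and 35.3 CPM in the high set. The sets of Dcn values met closely, at 16.8 CPM in CS 2 and 17.1 CPM in PF 3. Lum, encoding lumican (chr10:97565501-97572703), had 1.01, 1.32, 1.80, 1.93 and 1.49 CPM in the low libraries, against 1.62, 2.67 and 4.80 CPM in the high set. Lum thus overlapped between the sets, and it does not separate these libraries by itself.

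**Figure D1:**
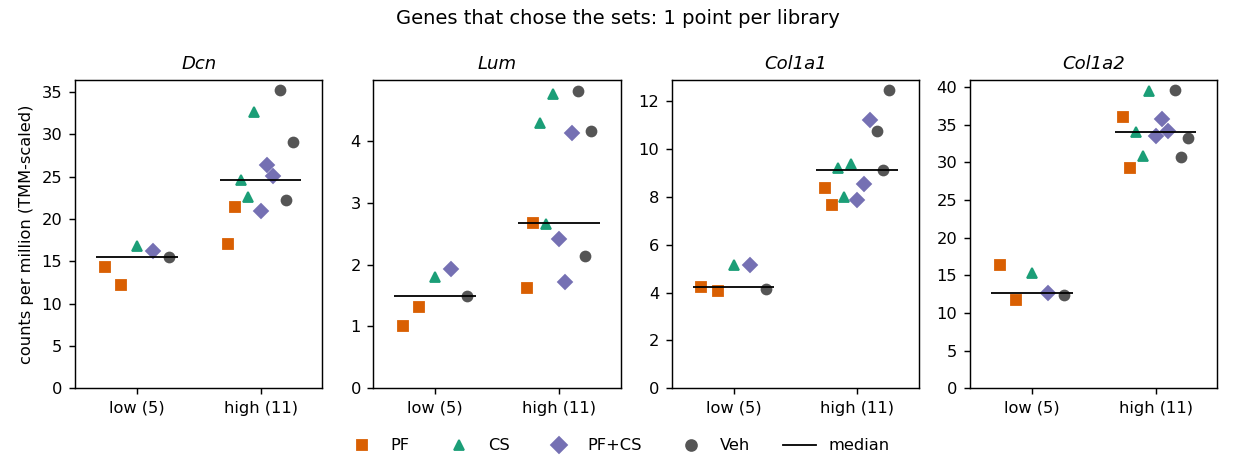
CPM, on a linear axis, of the 4 genes that chose the sets, with 1 point per library, the low set left of the high set and the treatment group as colour and shape; lines are medians. Col1a1 and Col1a2 leave a gap between the sets, Dcn meets at about 17 CPM and Lum overlaps.

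The mean log2 CPM of the 4 genes was 2.59 in PF 1, 2.48 in PF 2, 2.87 in CS 2, 2.81 in PF+CS 4 and 2.63 in Veh 3. In the high set it was 3.32 to 4.06. The library just inside the low set was CS 2 at 2.87 and the one just outside it was PF 3 at 3.32. In the fit with the 4 treatment groups as a factor, low minus high was log2 −1.33 ± 0.09 for Col1a2, −1.01 ± 0.12 for Col1a1, −0.99 ± 0.25 for Lum and −0.69 ± 0.13 for Dcn (SE, 5 against 11 libraries). In bulk tissue, fewer cells of a type and less RNA per cell cannot be told apart.

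Of the 14775 genes tested, 186 (1.26%) were lower in every low library than in any high one, and 7 (0.0474%) were higher in every low library. Of the lower ones, 110 (0.745%) were at least 2-fold lower. The median of all tested genes was log2 0.01. The sets were formed on these values, so the counts describe the split and are not evidence for it. Of those 110 genes, 46 were in 1 of 9 lists of meningeal genes, 4 were in lists of other cell types and 60 were in no list. The 9 lists hold 105 genes, of which 96 passed the filter on low counts. Of the 96, 50 were lower without overlap, 46 of these at least 2-fold, and the median was log2 −1.01. Genes that passed only through the high libraries had to be lower in the low set, so this median describes the genes that passed, and 9 genes of the lists (Mfap4, Mfap5, Dpt, Spon2, Slc22a2, Twist1, Twist2, Six2 and Gata6) were too low to test. The same limit holds for the counts of each meningeal list below, to be read beside the shares of all genes given here.

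**Figure D2:**
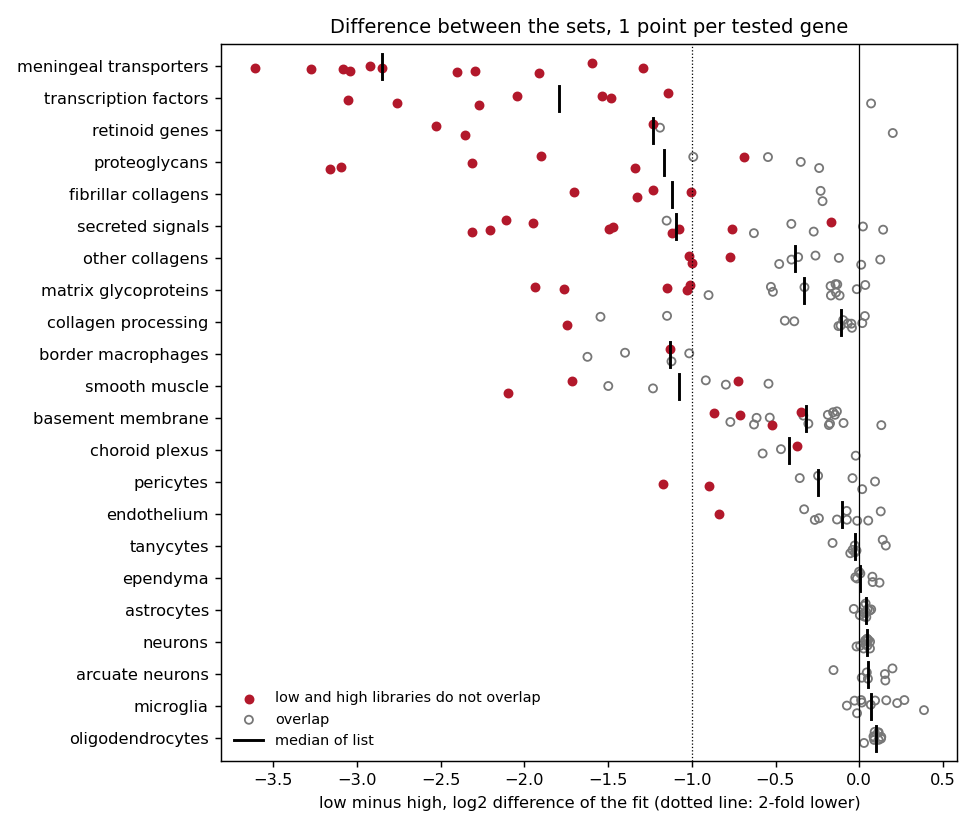
Low minus high log2 difference of each tested gene in 22 of the gene lists, with lists down the page and filled points for genes whose low and high libraries did not overlap. All 11 tested transporters lie left of the dotted line at 2-fold lower, while the medians of neurons, astrocytes, microglia and oligodendrocytes lie near 0.

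Transporters and junction genes of the arachnoid barrier stood furthest apart. All 11 tested members were at least 2-fold lower in the low set without overlap, with a median of log2 −2.85. Slc22a6, the organic anion transporter OAT1 (chr19:8617996-8628299), had 0.17 CPM in PF 1, 0.55 in PF 2, 0.96 in CS 2, 0.90 in PF+CS 4 and 1.49 in Veh 3, against 7.004, 12.5 and 16.004 CPM as the lowest, median and highest of the high set. Its estimate was log2 −3.61 ± 0.29, or 8.19% of the high level. Slc13a4, a sodium-dependent sulfate transporter (chr6:35267953-35308126), had 2.20, 1.87, 2.40, 1.41 and 4.16 CPM in the low libraries in that order, against 15.02, 27.1 and 39.6 CPM in the high set, a difference of log2 −3.27 ± 0.27. Veh 3 was the highest of the low libraries for both genes, yet far under every high library.

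The other transporters followed at a range of sizes. Slc47a1, which exports organic cations, was at log2 −3.08 ± 0.31, and Slc6a12, a carrier of betaine and GABA, at −3.04 ± 0.25. Slc26a7, an anion exchanger, was at −2.85 ± 0.23 and Cdh1, encoding the E-cadherin of arachnoid barrier junctions, at −2.92 ± 0.34. Slc6a13, the GABA transporter GAT2, was at −2.40 ± 0.14, and Slc22a8, the organic anion transporter OAT3, at −1.60 ± 0.20. Dpp4, a surface peptidase, was the least apart, at −1.29 ± 0.19.

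Some of these genes are neighbours. Slc22a8 (chr19:8591254-8611835) lies 6.16 kb from Slc22a6 and Slc6a13 (chr6:121300288-121337721) lies 4.85 kb from Slc6a12 (chr6:121342574-121365773), with 0 coding genes between the members of each pair. Slc22a8 and Slc6a13 were less far apart between the sets than their neighbours. Slc22a8 had 4.05 to 7.07 CPM in the low libraries and 9.95 to 30.9 CPM in the high ones. Slc6a13 had 2.53 to 4.24 CPM in the low libraries and 12.3 to 28.3 CPM in the high ones.

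**Figure D3:**
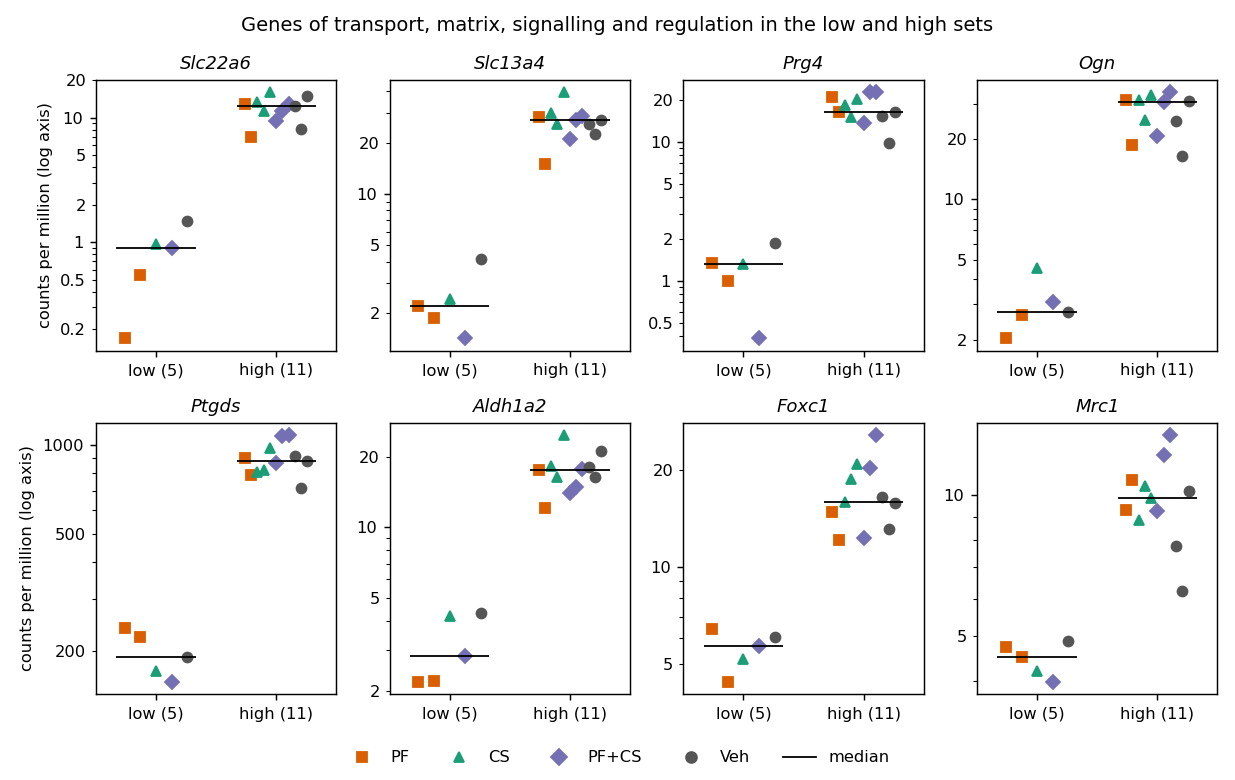
CPM, on a log axis, of 8 genes in each library, with the low set left of the high set, the treatment group as colour and shape, and lines for medians. Each gene leaves a gap between the sets, widest for Slc22a6, Slc13a4, Prg4 and Ogn and narrowest for Mrc1.

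Among the small proteoglycans of collagen fibrils, 6 of 10 were lower without overlap, and 5 of these at least 2-fold. Ogn, encoding osteoglycin (chr13:49608015-49624501), had 2.03 CPM in PF 1, 2.64 in PF 2, 4.55 in CS 2, 3.08 in PF+CS 4 and 2.75 in Veh 3, against 16.5, 30.6 and 34.3 CPM as the lowest, median and highest of the high set, a difference of log2 −3.09 ± 0.27. Fmod, encoding fibromodulin, was at −3.16 ± 0.22, with 1.67 to 4.08 CPM in the low libraries and 19.3 to 36.1 CPM in the high ones. Omd, encoding osteomodulin, was at −2.31 ± 0.33, Podn, encoding podocan, at −1.90 ± 0.26 and Bgn, encoding biglycan, at −1.34 ± 0.18.

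The family did not move as one. Prelp, which anchors basement membranes to connective tissue, was at log2 −0.24 ± 0.07, Ecm2 at −0.35 ± 0.12 and Aspn, encoding asporin, at −0.54 ± 0.31, all with overlap. Ogn, Omd, Aspn and Ecm2 lie beside each other on chromosome 13, with 0 coding genes between them, and Fmod follows Prelp on chromosome 1. Neighbours among the proteoglycan genes therefore differed in how far apart the sets were.

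Of the fibrillar collagen genes, 4 of 6 were at least 2-fold lower without overlap. Col3a1, encoding type III collagen, was at log2 −1.70 ± 0.24 and Col5a1, which nucleates fibrils, at −1.23 ± 0.13. Col5a2 and Col5a3 were at −0.22 ± 0.10 and −0.23 ± 0.11, with overlap. Among the other collagens 3 of 10 were lower without overlap, Col13a1 at −1.02 ± 0.24, Col6a2 at −1.001 ± 0.14 and Col6a1 at −0.78 ± 0.11. Col14a1 and Col15a1 were at 0.13 ± 0.19 and 0.01 ± 0.09.

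Among 17 tested matrix glycoproteins 5 were at least 2-fold lower without overlap. They were Islr at log2 −1.93 ± 0.13, Mgp, an inhibitor of calcification, at −1.76 ± 0.21, Fn1, encoding fibronectin, at −1.15 ± 0.12, Fbln1 at −1.03 ± 0.09 and Efemp1 at −1.01 ± 0.10. The elastic fibre genes Fbln5, Fbn1 and Mfap2 lay between −0.17 and −0.01, but not all genes of elastic fibres were so near 0. In counts not scaled to library size, Eln, encoding elastin, had 39 to 66 in the low libraries and 53 to 147 in the high ones. Emilin1 had 6 to 20 and 18 to 38. Both genes overlapped between the sets, and their unscaled ranges also carry library size, so they give no size of the difference. Over all 17 matrix glycoproteins the median was log2 −0.33, and 16 were below 0. Of 13 genes for collagen modification and cross-linking, 1 was lower without overlap, Pcolce, which enhances procollagen processing, at −1.74 ± 0.19. Lox, the enzyme that cross-links collagen, was at −1.55 ± 0.34 with overlap, and Plod1, Plod2 and P4ha3, which hydroxylate collagen, were between −0.04 and 0.03.

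Of 8 tested transcription factors of meningeal mesenchyme, 7 were at least 2-fold lower without overlap, against 0.745% of all tested genes. Osr1 and Tbx15 had at most 6 counts in any low library. They passed the filter through the high libraries and had to be lower in the low set, so the count describes the genes that passed. Foxc1 had 6.42 CPM in PF 1, 4.40 in PF 2, 5.15 in CS 2, 5.66 in PF+CS 4 and 6.04 in Veh 3, against 12.1, 15.8 and 25.6 CPM as the lowest, median and highest of the high set. Its estimate was log2 −1.54 ± 0.19. Foxc2, its close relative, was at −2.76 ± 0.25, and Osr1, a zinc finger factor of connective tissue, at −3.05 ± 0.28.

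The T-box factors Tbx15 and Tbx18 were at log2 −2.27 ± 0.33 and −2.04 ± 0.28, and Foxd1 at −1.14 ± 0.19. Prrx1, a factor of limb and craniofacial mesenchyme, was the exception at 0.07 ± 0.07.

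In the retinoid list 3 of 5 genes were lower without overlap. Aldh1a2, encoding the enzyme RALDH2 that makes retinoic acid, had 2.20 CPM in PF 1, 2.20 in PF 2, 4.19 in CS 2, 2.83 in PF+CS 4 and 4.32 in Veh 3, against 12.2, 17.7 and 24.8 CPM in the high set, a difference of log2 −2.36 ± 0.15. Crabp2, a binding protein of retinoic acid, was at −2.53 ± 0.24. Rdh10, which oxidises retinol, was at 0.20 ± 0.08 with overlap.

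Of 16 secreted signals and carriers, 10 were lower without overlap, 8 of them at least 2-fold. Ptgds, encoding prostaglandin D synthase of the lipocalin type (chr2:25466709-25470110), was the most abundant, with 240 CPM in PF 1, 224 in PF 2, 172 in CS 2, 158 in PF+CS 4 and 192 in Veh 3. In the high set the lowest, median and highest were 712, 881 and 1077 CPM, a difference of log2 −2.20 ± 0.13. On the per-length scale its deposited FPKM were 67.8 to 112 in the low libraries and 351 to 491 in the high ones, so that in the high libraries it stood above Mbp, a myelin gene at 227 to 306 FPKM there, and in the low libraries below it.

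Igf2, a growth factor made by meninges, had 20.3 CPM in PF 1, 28.3 in PF 2, 25.8 in CS 2, 21.9 in PF+CS 4 and 24.5 in Veh 3, against 80.1, 111 and 147 CPM in the high set, a difference of log2 −2.11 ± 0.18. The binding proteins of insulin-like growth factors differed among themselves, with Igfbp6 at −2.31 ± 0.39, Igfbp2 at −1.95 ± 0.16, Igfbp4 at −0.76 ± 0.11 and Igfbp5 at −0.17 ± 0.03. Bmp6, Bmp4 and Bmp7 were at −1.49 ± 0.15, −1.47 ± 0.24 and −1.08 ± 0.11. Il33, a nuclear alarmin that oligodendrocytes and astrocytes also make, and Serpinf1 were at 0.14 ± 0.08 and 0.02 ± 0.13.

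Of the 15 genes with the widest difference, 10 were in the lists above. The single gene furthest apart was in no list. Prg4, encoding lubricin, the lubricant of joints (chr1:150449412-150466221), had 1.35 CPM in PF 1, 0.99 in PF 2, 1.32 in CS 2, 0.39 in PF+CS 4 and 1.88 in Veh 3, against 9.77, 16.4 and 22.7 CPM in the high set, a difference of log2 −3.76 ± 0.30. Kcnj13 was at −3.29 ± 0.32, Mpzl2, an adhesion protein of epithelia, at −3.24 ± 0.24, H2-Q1, a class I histocompatibility gene, at −3.21 ± 0.49 and Sphk1, which makes sphingosine 1-phosphate, at −2.75 ± 0.27. H2-Q1 belongs to a family of near-identical genes, so its counts are uncertain, and in the deposited FPKM table, on the log2(FPKM + 0.1) scale that understates differences of low genes, it was at −0.78.

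The 7 genes higher in every low library differed little. They were Zfp87 at log2 0.21 ± 0.06, Tbc1d30 at 0.16 ± 0.04, Cnnm1 and Dync1i1 at 0.12 ± 0.04 and 0.12 ± 0.03, Cdk5r1 at 0.11 ± 0.03, Ppp3r1 at 0.08 ± 0.03 and Tcf20 at 0.07 ± 0.02. Cdk5r1, the activator of the neuronal kinase Cdk5, had 140 to 146 CPM in the low libraries and 126 to 139 CPM in the high ones. No gene was at least 2-fold higher without overlap.

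Other cells of the brain border and of vessels went partly with the split. Of 8 markers of border macrophages 5 could be tested. All 5 were at least 2-fold lower, 1 of them without overlap, against 162 of all 14775 tested genes at least 2-fold lower. Genes that passed the filter only through the high libraries had to be lower in the low set, so this count describes the genes that passed. Mrc1, the mannose receptor of these macrophages, had 4.73 CPM in PF 1, 4.51 in PF 2, 4.19 in CS 2, 3.98 in PF+CS 4 and 4.86 in Veh 3, against 6.23, 9.88 and 13.5 CPM in the high set, a difference of log2 −1.13 ± 0.13. The summed level of the 8 macrophage genes was 7.45 to 12.3 CPM in the low libraries and 13.2 to 33.2 CPM in the high ones. Microglia, by contrast, had a median of log2 0.07 over 11 genes, with 0 of them separated.

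Smooth muscle genes had a median of log2 −1.07 over 8 tested genes, 3 of them without overlap, and their summed level of 29.7 to 43.3 CPM in the low libraries overlapped with 38.7 to 151 CPM in the high ones. Acta2, smooth muscle actin, reached 32.6 CPM in CS 4 and 29.6 CPM in PF+CS 3 and was 3.86 CPM in Veh 2, all of the high set. Lmod1 and Tagln, which bind actin in these cells, were at −2.10 ± 0.30 and −1.71 ± 0.30. The medians of the pericyte, basement membrane and endothelium lists were −0.25, −0.32 and −0.10. Lower without overlap were 2 of 7 pericyte genes, Anpep, a surface peptidase, at −1.17 ± 0.18 and Vtn, encoding vitronectin, at −0.90 ± 0.08. So were 4 of 18 basement membrane genes, Nid1 at −0.87 ± 0.09, Lama4 at −0.71 ± 0.09, Lamb2 at −0.52 ± 0.06 and Lama2 at −0.35 ± 0.05, and 1 of 10 endothelial genes, Cdh5, the cadherin of endothelial junctions, at −0.84 ± 0.09. What part these vessel and macrophage genes have in the split was not tested.

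Genes of brain tissue itself lay near 0. The median was log2 0.05 over 11 neuron genes, 0.04 over 11 astrocyte genes, 0.10 over 10 oligodendrocyte genes and −0.03 over 8 tanycyte genes, with 0 genes separated in each. The 7 tested arcuate genes had a median of 0.05. For the choroid plexus, another source of Kcnj13 and of transporters, 4 of 10 markers could be tested, with a median of −0.42. Of these, 1 was lower without overlap, Kl, the co-receptor of FGF23, at −0.37 ± 0.08, with 10.3 to 13.1 CPM in the low libraries and 13.5 to 20.1 CPM in the high ones. The summed level of the 10 was 42.1 to 47.9 CPM in the low libraries and 45.5 to 59.6 CPM in the high ones. Thalamic and striatal markers, which a wider dissection would carry, had medians of −0.17 and −0.13, and 3 tested pituitary genes −0.23.

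Depth did not separate the sets. Library totals were 6008564 to 12880459 counts in the low set, which thus held both the smallest and the largest library, and 6710037 to 11567422 counts in the high set. The ribosomal transcript Rn45s took 2.84 to 4.03% of counts in the low set and 2.44 to 5.62% in the high set. All 105 meningeal genes together took 0.122 to 0.131% in the low set and 0.224 to 0.304% in the high set. Across all genes, component 1 of the libraries held 22.7% of the variance and did not separate the sets, while component 2 held 20.3% and put all 5 low libraries at one end.

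**Figure D4:**
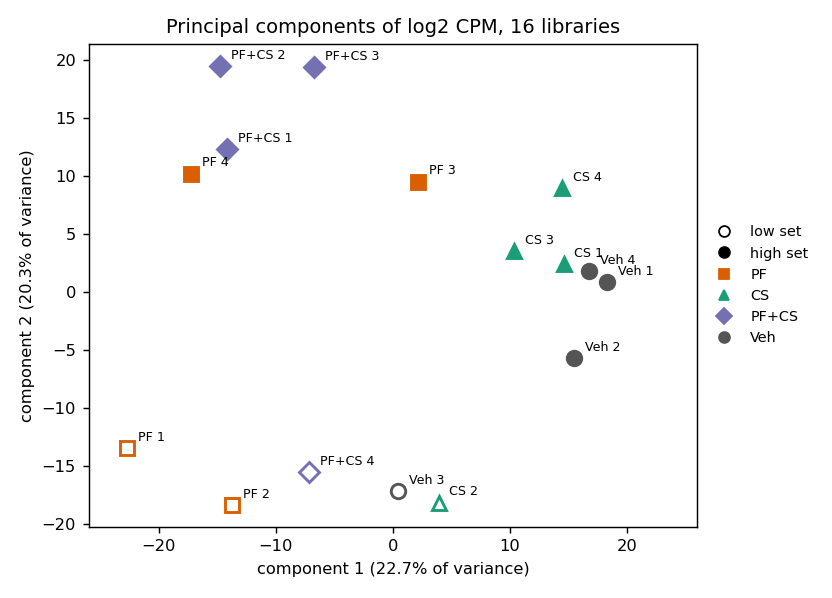
Positions of the 16 libraries on the first 2 principal components of log2 CPM, with open symbols for the low set and colour and shape for treatment. The 5 low libraries lie together at the lower end of component 2, and on component 1 they spread among the other libraries.

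Low minus high was also taken within each treatment group. Each library was placed by its own levels of fibroblast genes, so lower values within a group follow from the split and are no repeat of it. As the median over the 96 tested meningeal genes, low minus high in log2(CPM + 0.1) was −0.93 in PF (2 against 2 libraries), −1.02 in CS, −0.82 in PF+CS and −0.87 in Veh (1 against 3 in each). For the 11 transporters the medians were −2.57, −2.49, −2.62 and −2.33 in that order. With 1 low library in 3 of the groups, these values have no error of their own.

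The comparison that follows asks which meningeal genes differed by treatment and how far that depends on the low libraries. The fit over all 16 libraries is the test of treatment. Of the 2 other fits, one takes the low or high set as a second term and one leaves out the 5 low libraries. The sets were formed on meningeal levels of these same libraries and are uneven over treatment, so the spread of meningeal genes within a set is smaller by construction. For these genes the counts of the 2 other fits describe how the result depends on the low libraries and are not tests of treatment. Over all 16 libraries, edgeR's quasi-likelihood F test called 6 of 96 meningeal genes across the 4 groups, while it called 9.76% of all genes (Benjamini-Hochberg adjusted p at most 0.05). With the low or high set as a second term it called 14 of 96, against 11.8% of all genes. Without the 5 low libraries it called 13 of 96, against 13.4% of all genes. The 6 genes of the first fit were Col5a3, Col14a1, Fbln5, Emilin2, Cxcl12 and Il33. All 6 lay within log2 0.27 of 0 between the sets.

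The median biological coefficient of variation of the meningeal genes was 0.332 in the fit of the 4 groups, 0.108 with the set as a term and 0.0982 among the 11 high libraries. The lower values of the meningeal genes in the last 2 fits follow from how the sets were formed. Over all genes the common value was 0.0549, 0.0470 and 0.0443 in those 3 fits.

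PF minus Veh called 2 meningeal genes over all 16 libraries, against 3.63% of all genes. It called 3 with the set as a term, against 4.43%, and 3 without the low libraries, against 4.81%. Emilin2, a glycoprotein of the elastic fibre family (chr17:71252172-71311556), rose. It had 11.5, 4.62, 5.15 and 8.66 CPM in PF 1 to 4 and 3.50, 4.62, 4.16 and 3.33 CPM in Veh 1 to 4, and differed by log2 0.91 ± 0.24 over all libraries (edgeR adjusted p = 0.0420), a call that was lost in 12 of 16 fits that left out 1 library, with adjusted p of 0.0509 to 0.190 there. Without the low libraries, of which PF held 2, the difference was 0.91 ± 0.23 in 2 PF against 3 Veh libraries. In the authors' deposited table made from the PF and Veh columns, Fbln5, Emilin2 and Il33 were called, with adjusted p of 1.68e-06, 0.0293 and 0.000721.

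Col14a1 fell by 1.03 ± 0.26 on the log2 scale over all libraries, with 1.17 ± 0.20 CPM in PF and 2.39 ± 0.28 CPM in Veh (SD, n = 4), at an edgeR adjusted p of 0.0239. Without the low libraries it was at −0.83 and was not called (edgeR adjusted p = 0.170). Without PF 2, PF 4, Veh 1 or Veh 2 alone edgeR's adjusted p was 0.0670 to 0.0799. Col14a1 was not called in the authors' deposited table made from the PF and Veh columns, where its adjusted p was 0.153. The 4 genes that chose the sets were not called, with adjusted p of 0.300 to 0.820 over all libraries by edgeR. Dcn and Lum averaged 16.3 ± 4.00 and 1.66 ± 0.72 CPM in PF against 25.5 ± 8.55 and 3.15 ± 1.58 CPM in Veh, where PF held 2 low libraries and Veh 1. Over all libraries Dcn, Lum, Col1a1 and Col1a2 were at log2 −0.60 ± 0.29, −0.79 ± 0.46, −0.53 ± 0.37 and −0.26 ± 0.46. Without the low libraries they were at −0.55 ± 0.24, −0.70 ± 0.40, −0.44 ± 0.17 and −0.09 ± 0.11. These genes chose the sets, so the latter values are estimates only, and what lowered the PF means was not tested.

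CS minus Veh called 0 of 96 meningeal genes in each fit by edgeR, where 0.893%, 1.37% and 2.28% of all genes were called over all libraries, with the set as a term and without the low libraries. At an unadjusted p under 0.05 there were 3, 10 and 9 meningeal genes in the same order. In the authors' deposited table made from the CS and Veh columns, Cxcl12, a chemokine of the meninges, was called at an adjusted p of 0.0474, and 13 meningeal genes have an adjusted p there. By contrast, edgeR put it at log2 0.34 with an adjusted p of 0.394.

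Of the 3 comparisons with Veh, PF+CS minus Veh had the number of meningeal calls that changed most with the low libraries. It called 2 of 96 meningeal genes over all libraries, against 10.3% of all genes, both of them higher (the shares of all genes were 5.85% for higher and 4.47% for lower). With the set as a term it called 11, against 11.9% of all genes, 9 of them higher and 2 lower (6.74% and 5.14% of all genes). Without the low libraries it also called 11, against 14.8% of all genes, again 9 higher and 2 lower (8.28% and 6.5% of all genes). The meningeal genes called were 2.08% of 96 over all libraries and 11.5% in each of the other fits, near the 11.9% of all genes with the set as a term and under the 14.8% without the low libraries. In the authors' deposited table made from the PF+CS and Veh columns, 5 meningeal genes were called, Emilin2 at an adjusted p of 0.000339, Lox at 0.0046, Fbln5 at 0.00552, Il33 at 0.0127 and Igfbp4 at 0.0314.

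Emilin2 and Fbln5, encoding fibulin 5 of elastic fibres, rose over all libraries. Fbln5 had 34.3, 44.7, 40.8 and 22.4 CPM in PF+CS 1 to 4 and 20.9, 21.4, 19.7 and 16.8 CPM in Veh 1 to 4, so that PF+CS 4, the low library, lay nearest to the Veh group. The difference was log2 0.87 ± 0.22 over all libraries (edgeR adjusted p = 0.0257) and 1.03 ± 0.18 without the low ones. The call was lost in the fits without PF+CS 1, PF+CS 2, PF+CS 3, Veh 2 or Veh 4, where edgeR's adjusted p was 0.0513 to 0.0777. Emilin2 differed by 1.04 ± 0.24 over all libraries (adjusted p = 0.00867 by edgeR) and by 1.19 ± 0.20 without the low ones.

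Lox, Slc6a13, Fn1, Fbln1, Igfbp4, Prelp and Slc6a12 did not pass the test over all 16 libraries. They are the genes that the other fits added on the higher side, so their values are given as estimates. Lox had 1.79, 6.39, 5.11 and 1.29 CPM in PF+CS 1 to 4 and 1.56, 0.75, 0.71 and 1.04 CPM in Veh 1 to 4. Its difference was log2 1.92 ± 0.59 over all libraries (edgeR adjusted p = 0.0570) and 1.80 ± 0.36 with the set as a term.

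Slc6a13 was far apart between the sets. It had 19.7, 20.5, 28.3 and 4.24 CPM in PF+CS 1 to 4 and 17.4, 12.3, 2.90 and 15.7 CPM in Veh 1 to 4, where PF+CS 4 and Veh 3 are the low libraries and lie under all others. The difference was log2 0.68 ± 0.68 over all libraries (edgeR adjusted p = 0.593), 0.60 ± 0.13 with the set as a term and 0.61 ± 0.17 without the low libraries.

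Il33 and Thbs2, a matricellular protein, were added by the same fits on the lower side and did not pass over all 16 libraries. Il33 had 46.7, 47.5, 46.1 and 70.2 CPM in PF+CS 1 to 4 and 64.0, 64.6, 72.5 and 71.2 CPM in Veh 1 to 4. PF+CS 4 stood within the Veh range, apart from the other 3 PF+CS libraries, while between the sets as a whole Il33 overlapped. The difference was log2 −0.39 ± 0.12 over all libraries (edgeR adjusted p = 0.0515) and −0.51 ± 0.07 without the low ones.

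**Figure D5:**
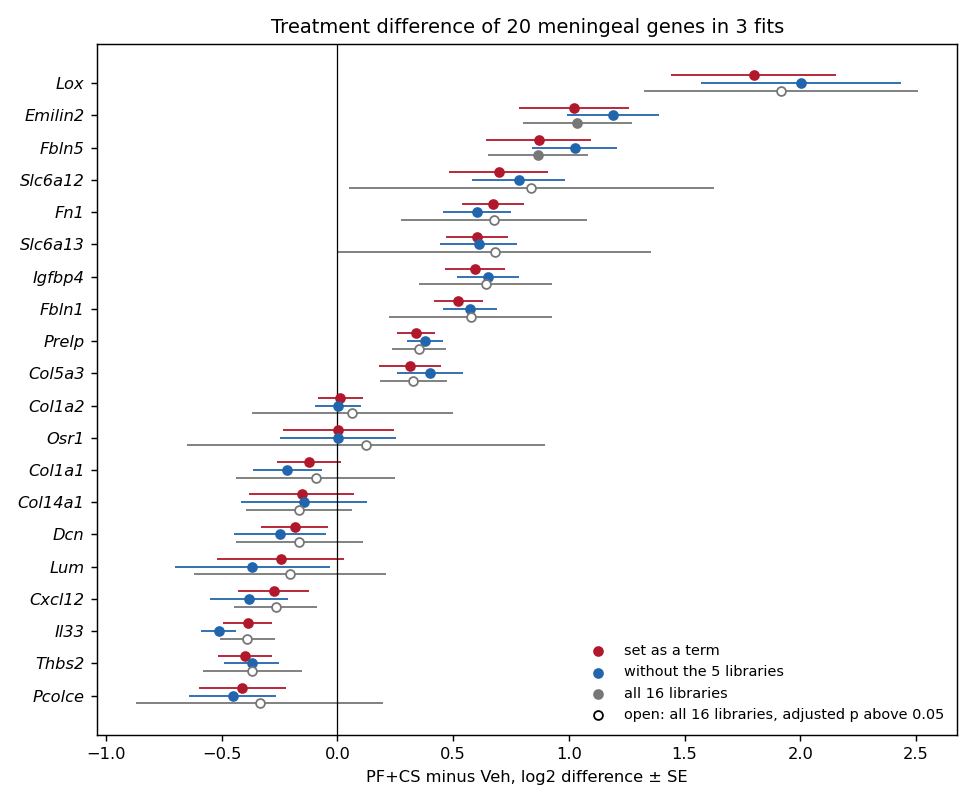
Log2 difference PF+CS minus Veh, with its standard error, of the 20 meningeal genes named in treatment comparisons, in the fit with the set as a term, without the 5 low libraries and over all 16 libraries; open points of the last have an edgeR adjusted p above 0.05, and the other fits are drawn as estimates with no call. The points of a gene lie close together, and over all 16 libraries the bars of Slc6a12, Osr1 and Slc6a13 are the widest.

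Over all genes, 99.7% of those called in PF+CS minus Veh over 16 libraries were also called with the set as a term, and they made up 86.6% of the genes called there. For PF minus Veh the shares were 98.1% and 80.5%, and for CS minus Veh 100% and 65.3%. These 3 comparisons share the Veh libraries. The authors' deposited tables of these comparisons bear names at odds with the counts, since the means in the table headed with Veh and CS come from PF and Veh libraries, and those in the table headed with PF and Veh come from CS and Veh libraries. The sets were named here by count columns, so low minus high does not depend on which name is right, while the values given for PF and for CS do.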

How the data were processed

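Bulk RNA sequencing libraries of hypothalamus from 16 mice were analysed, 4 per treatment group, and low and high sets were taken from the count columns named in the opening. The authors deposited a table of counts for each gene, and a further table under a similar name whose values were read as FPKM, since CPM over FPKM differed up to 18.3-fold between 31 genes and by a coefficient of variation of at most 10.3% between libraries of a gene. The authors' deposited comparison tables hold a mean of normalised counts (baseMean), a log2 fold change and an adjusted p-value. These means matched averages of count columns, which is how tables were tied to columns. The genome build was GRCm38, per the submitters' processing notes, and no source used here names the aligner or the counter. Gene positions and promoters came from RefSeq's GRCm38.p6 annotation, with 72 of 105 meningeal genes having a promoter.

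The count table lists 24047 genes, of which 27 carry names altered by a spreadsheet to dates (23 were tested, none named), and 0 columns belonged to another series. The 14775 genes that passed filterByExpr (minimum count 10) were scaled by TMM and fitted with edgeR 4.0.16 in R 4.3.3, using its robust quasi-likelihood test. For low minus high, group and set were terms, estimates carry their standard error and no p was used. Treatment was tested by an F test over 4 groups and by each group minus Veh, with Benjamini-Hochberg adjustment over all tested genes at 0.05. The scripts were tested on simulated data. Alternatives were DESeq2 1.42.0, limma's voom (limma 3.58.1) and changes of scaling, filter, fold, FPKM (pseudocount 0.1), replicate block and left-out libraries.

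Members, lists and tests were chosen with earlier results of these data known. Genes were named if they chose the sets, if they were among up to 15 per direction with the largest estimate, no overlap and a mean log2 CPM of at least 1, if they were among the 4 largest of a list, or if they were meningeal genes called in a treatment fit, and some others of the lists are given beside them, chosen after their values were seen. Some genes that this rule names are left out of the text. Replicates of a group differed by 1.62 to 6.46 in chi-square per degree of freedom, more than counting error, and none was a repeat of another. No source used here says whether the libraries carry strand.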

Additional observations from a re-analysis of the deposited data

Results flagged for a closer look

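In 80 groups of 4 libraries, formed by the 20 meningeal genes named in the treatment comparisons and the 4 treatments, 6 held a library set apart from the other 3 by Dixon's test at 95%. Chance flags about 1 in 20 groups. All 6 values come from libraries of the low set, but Col1a2 chose the sets, and Pcolce and Slc6a13 were far apart between them. In a group with 1 low library a value of such a gene can stand apart through the split alone, so it is no independent observation. Col5a3, Prelp and Il33 overlapped between the sets, and PF, the group of the Col5a3 value, held 2 low libraries. What set the values of Col5a3, Prelp and Il33 apart was not tested. PF 2 had 8.90 CPM of Col5a3, against 11.98 to 12.5 CPM in the other PF libraries. CS 2 was apart in 3 genes, with 37.9 CPM of Prelp against 41.7 to 42.4, 0.959 CPM of Pcolce against 5.89 to 6.13 and 3.00 CPM of Slc6a13 against 14.7 to 16.9 CPM in the other CS libraries. PF+CS 4 had 12.6 CPM of Col1a2, against 33.4 to 35.7 CPM in the other PF+CS libraries, and 70.2 CPM of Il33, against 46.1 to 47.5. Il33 was the only one of the 6 in which the low library was the higher one.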

How the results depend on the processing

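For low minus high, the 110 genes became 76 in the FPKM table, 154 at 1.5-fold and 103 to 116 in the other alternatives, and the 46 meningeal genes among them 36 to 49. Leaving out 1 library gave 105 to 123 and 43 to 47. For the 4 genes that chose the sets and the 15 lower and 7 higher genes named, no low minus high direction reversed in any alternative run. In PF minus Veh some uncalled genes changed sign. Slc6a13 went from log2 −0.25 over all 16 libraries to 0.08 with the set as a term, and Slc6a12 from −0.10 to 0.20. The sets were formed on meningeal levels, so meningeal counts with the set as a term or without the low libraries are no tests of treatment. Meningeal calls across 4 groups were 14 with the set as a term and 13 without the low libraries, against 6. In PF minus Veh, 1 in place of 2 was called without a filter on low counts, with the replicate block and by voom. In PF+CS minus Veh, 11 were called with the set as a term, 11 without the low libraries and 5 by DESeq2, against 2. CS minus Veh called 132 genes in all, 202 with the set as a term, 342 without the low libraries and 298 by DESeq2.

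Leaving out 1 library gave 795 (without Veh 2) to 1966 (without PF+CS 4) genes across 4 groups, 111 (without Veh 2) to 810 (without PF 3) in PF minus Veh, 10 (without CS 4) to 242 (without Veh 3) in CS minus Veh and 710 (without Veh 2) to 2007 (without PF+CS 4) in PF+CS minus Veh. Meningeal calls were then 2 to 10 across 4 groups, 0 to 7 in PF minus Veh, 0 throughout in CS minus Veh and 1 to 7 in PF+CS minus Veh. The causes were not tested.

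Same-numbered libraries of different groups did not deviate together more than others. Their median correlation was −0.02 over 24 pairs, 5 over 0.1, against 0.03 over 72 pairs of different number, 22 over 0.1. The low and high split adds to these deviations, so this gives no sign of pairing by number but cannot exclude it. The replicate block gave 1060, 401, 99 and 1221 genes for 4 groups, PF, CS and PF+CS minus Veh, and 103 and 42 for low minus high. Among values of named genes, 12 low minus high differences moved by more than their spread, each in the FPKM table and towards 0, among them H2-Q1 at −0.78, Slc6a12 at −1.92 and Sphk1 at −1.74. Genes under 1 CPM, such as Slc22a6 in low libraries, rest on few counts, and 4 libraries per group, with 1 or 2 low ones, limit each treatment call.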

Other observations

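Of the 110 genes at least 2-fold lower in the low set without overlap, 60 were in no list. The following were chosen after their values were seen and carry no test. Spp1, encoding the secreted phosphoprotein osteopontin, had 3.83 to 9.29 CPM in the low libraries and 15.03 to 30.9 CPM in the high ones. Nov and Ctgf, matricellular proteins of the CCN family, were at log2 −1.78 ± 0.11 and −1.76 ± 0.35. Thbd, the thrombin receptor thrombomodulin, was at −1.50 ± 0.23 and Bnc2, a zinc finger factor of mesenchyme, at −1.55 ± 0.21. Gjb2, encoding connexin 26, had 5.57 to 8.15 CPM in the low libraries and 10.9 to 21.8 CPM in the high ones. Wnt6, a secreted Wnt ligand, was at −2.08 ± 0.27.

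Some genes differed by at least 2-fold on the fit with libraries that overlapped. Cyp1b1 and Cyp26b1, cytochromes P450 of which the second degrades retinoic acid, were at log2 −1.39 ± 0.18 and −1.31 ± 0.18. The class II histocompatibility genes H2-Aa and H2-Eb1 were at −1.09 ± 0.19 and −1.19 ± 0.21. S100a8 and S100a9, genes of neutrophils, were at −2.19 ± 0.46 and −1.60 ± 0.38 with at most 4.04 CPM in any library. S100a8 reached 10 counts only in PF 3, PF 4, PF+CS 2 and PF+CS 3, all of the high set. It passed the filter through these libraries, so it had to be lower in the low set. The red cell gene Alas2 was at −1.36 ± 0.34. Glucocorticoid-induced genes overlapped. Of 9 tested, 8 were below 0, with a median of −0.14, Fkbp5 lying at −0.45 ± 0.28 and Sgk1, the exception, at 0.24 ± 0.23. Within groups their summed level went both ways. It was 533 CPM in PF+CS 4 against 835 to 1048 in the other PF+CS libraries, and 452 in Veh 3 against 256 to 307 in the other Veh libraries. PF 1 and PF 2 had 920 and 531 against 566 and 963 in PF 3 and PF 4, and CS 2 had 356 against 369 to 424. The cause was not tested.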
